A study of Mus musculus with 60 samples.

Results

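Circular RNAs (circRNAs) of the mouse Gigyf2 region were examined in brain, heart, kidney, liver and spleen. Members were all entries of the authors' deposited organ tables that lay on chromosome 1 between 87254000 and 87379000 of GRCm39. The rule found 3 of the 2799 different circRNAs, in 10 of the 4724 table entries. One of them, 1:87291826|87307730, was named with the rule and selected on its mean normalized count in brain, where it led the table at 364.5. Its brain level is therefore a description and not a result. The other circRNAs nearest to the region on chromosome 1 lay 1278834 bases before and 380043 bases after its members, and none crossed the bounds of the region.

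The tissues came from 6 male mice aged 4 months, 3 labelled Ftsj1_DF (Ftsj1-deficient) and 3 labelled WT. The labels do not describe the deficient allele. Whole organs were used, each mouse gave all 5 organs, and the labels divide the mice into 2 sets of brothers with equal numbers of both genotypes in each set. Each of the 30 combinations of mouse and organ has 2 samples, labelled batch 1 and batch 2, which makes 60 samples. Linear RNA had been digested with RNase R, so neither Ftsj1 mRNA nor marker genes of the tissues could be checked. The values are the authors' own comparisons, 1 table per organ: the mean normalized count over the libraries of both genotypes, the log2 fold change between genotypes with its standard error (SE), p and adjusted p. Values per mouse were not analysed here, so depth per library and the SD between mice are unknown. The sources used here do not say which genotype is the numerator, and signs are kept as they stand in the tables. In whole tissue, fewer cells that make a circRNA and less of it per cell cannot be told apart.

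A circRNA forms when an exon's end is spliced back to the start of that exon or of one upstream in the same transcript. This closes the RNA into a ring. The ring has no free end, is resistant to RNase R, and is recognised by reads across the back-splice junction. Many circRNAs arise from the early exons of protein-coding genes, and brain is known for its rich circRNA content. Gigyf2 encodes GIGYF2, a GYF-domain protein that binds the cap-binding protein 4EHP and represses translation of bound mRNAs, also on transcripts where ribosomes collide. Ftsj1 encodes a tRNA methyltransferase that modifies the anticodon loop.

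The host exons were identified by distances, because the annotation at hand (GENCODE M21) belongs to GRCm38 and its positions cannot be used with those of the tables. All 3 circRNAs began at base 87291826 and ended at 87293001, 87301833 and 87307730. An exon start with exon ends at exactly these 3 distances was found in 1 of 55341 annotated genes, Gigyf2. The distance of the longest circRNA alone occurred in 83 genes. With the ends moved by 1 base either way, no gene matched more than 1 distance from the same exon start. In transcript Gigyf2-201, which has 29 exons, the shared start is that of exon 4, and the ends are those of exons 5, 6 and 8. The same chain of 5 exons stood in all 6 of the 23 annotated Gigyf2 transcripts that held every end, and 4 of these numbered the exons alike.

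The shortest circRNA, at chr1:87291826-87293001, spanned 1176 bases and held exons 4 and 5, 226 exonic bases. The next, chr1:87291826-87301833, spanned 10008 bases and added exon 6, for 341 exonic bases. The longest, chr1:87291826-87307730, spanned 15905 bases and added exons 7 and 8, for 494 exonic bases. It is called the exon 4 to 8 circle below, and the others the exon 4 to 5 and exon 4 to 6 circles. Exonic bases made up 19.2% of the span of the shortest circle, 3.41% of the next and 3.11% of the longest, and the rest is intron. Exonic lengths assume that these introns were removed, which junction reads do not show. All of these exons are coding in Gigyf2-201, with no UTR. Division of the exonic length by 3 left 1 base over in the exon 4 to 5 circle and 2 in each of the others, so none keeps the reading frame across its junction. No member ended at exon 7, and none consisted of exon 4 alone.

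The 3 back-splice junctions are shown because they are what tells the circles apart. Each line gives the last 30 bases of the downstream exon in lower case, followed in capitals by the first 30 bases of exon 4, 5′ to 3′. They were read by exon order from the GENCODE M21 sequence of Gigyf2-201 on the plus strand of GRCm38, not by position from GRCm39.
exon 5 to exon 4 junction: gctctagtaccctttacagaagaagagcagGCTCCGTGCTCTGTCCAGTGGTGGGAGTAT
exon 6 to exon 4 junction: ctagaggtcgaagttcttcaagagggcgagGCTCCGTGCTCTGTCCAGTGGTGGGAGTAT
exon 8 to exon 4 junction: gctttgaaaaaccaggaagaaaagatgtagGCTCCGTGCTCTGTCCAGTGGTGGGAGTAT

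The capital part is the same in all 3 lines, so a junction read is assigned by its lower-case part. Exon 4, which every member contains, and exons 7 and 8, which only the most abundant circle contains, follow from the same transcript. Exon 8, whose end makes that junction, is in capitals.
exon 4: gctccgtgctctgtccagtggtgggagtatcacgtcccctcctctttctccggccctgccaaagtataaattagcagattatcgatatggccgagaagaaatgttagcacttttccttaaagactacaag
exons 7 and 8: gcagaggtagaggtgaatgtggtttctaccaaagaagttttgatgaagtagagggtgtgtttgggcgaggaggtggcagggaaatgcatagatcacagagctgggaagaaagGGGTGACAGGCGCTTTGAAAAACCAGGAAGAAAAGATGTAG

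The exons differ in size. Exon 4 has 130 bases, exon 5 has 96, exon 6 has 115, exon 7 has 112 and exon 8 has 41. Exons 4 and 5 lie close together, with 1080 bases between their first bases, while exons 7 and 8 begin 14868 and 15864 bases from the shared start. Over all tables the median span was 5906 bases, and 75.1% of the 2799 circRNAs had a shorter span than the exon 4 to 8 circle.

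**Figure D1:**
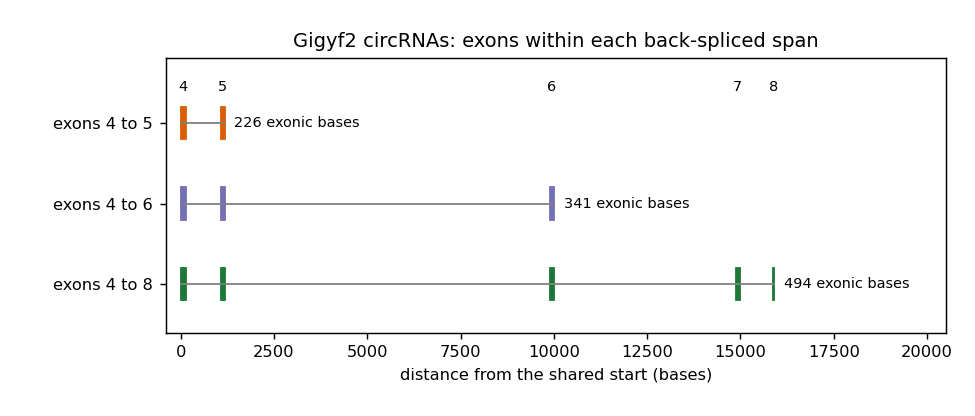
Exons of the 3 Gigyf2 circRNAs. The horizontal axis is the distance in bases from the start they share, boxes are exons drawn to scale and numbered at the top as in Gigyf2-201, and lines are introns within the span; the circles hold 226, 341 and 494 exonic bases.

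The exon 4 to 8 circle was among the 10 most abundant circRNAs of all 5 organs. In the authors' deposited tables its mean normalized count was 364.5 in brain, 288.8 in liver, 129.7 in spleen, 127.1 in kidney and 51.8 in heart. These levels were normalized within each table, so their sizes are not compared between organs, and ranks are used instead. It stood at rank 1 of 1856 in brain, 2 of 996 in kidney, 2 of 308 in spleen, 6 of 900 in liver and 10 of 664 in heart. By percentile it stood at 99.97 in brain, 99.85 in kidney, 99.51 in spleen, 99.39 in liver and 98.57 in heart. Percentiles depend on the length of the table: kidney and spleen share rank 2 and differ in percentile only through it. No spread over mice is available to say which organs differ in rank.

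Relative to the typical circRNA of the same table, the circle stood highest in brain. This lead is a description and not a result, since brain is where the circle was selected. Its mean normalized count in the authors' deposited tables was 94.2 times the table median in brain, 39.1 times in spleen, 38.2 times in kidney, 33.0 times in liver and 18.6 times in heart. Its share of the summed mean normalized count ran in another order. It was 6.06% in spleen, 2.36% in brain, 1.88% in kidney, 1.52% in liver and 1.26% in heart. The spleen table has the fewest entries, which raises the share of each. The table medians ran from 2.78 in heart to 8.75 in liver and depend on which circRNAs are listed.

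The circRNAs next to it in rank give the scale of these levels. In brain the next circRNA of the authors' deposited table, at chr5:118731398-118731635, had 310.7. In heart the ninth circRNA had 55.7 and the eleventh 46.2, on either side of the circle at 51.8 in the authors' deposited table. In liver the fifth had 338.7 and the seventh 279.8 in the authors' deposited table. In the authors' kidney table it stood between 145.9 and 97.7, and in their spleen table between 199.5 and 96.6. Of the 9 circRNAs above the circle in heart, 5 stood in every organ table with it, as did 4 of the 5 above it in liver.

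**Figure D2:**
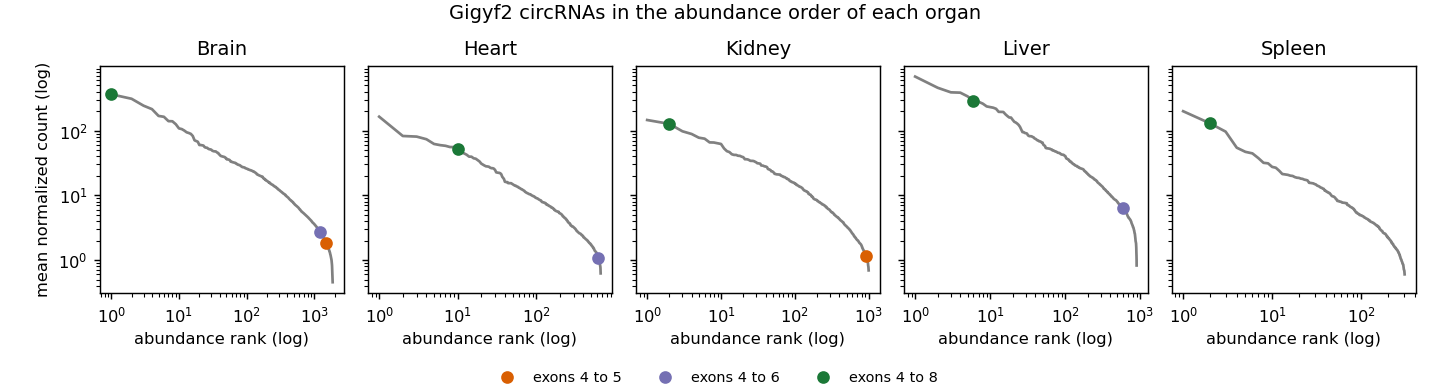
Mean normalized count (vertical, log scale) against abundance rank (horizontal, log scale) for every circRNA of each organ table, with the Gigyf2 circles as coloured points. The exon 4 to 8 circle stands at ranks 1, 10, 2, 6 and 2 from the left panel to the right. The shorter circles stand below the table median, by percentile from rank 1195 of 1856 in brain to rank 619 of 664 in heart.

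The shorter circles were listed in fewer organs and at low levels. The exon 4 to 6 circle was listed in brain at 2.74, heart at 1.08 and liver at 6.32 mean normalized counts in the authors' deposited tables. These are rank 1195 of 1856, 619 of 664 and 599 of 900. The exon 4 to 5 circle was listed in brain at 1.87 and kidney at 1.15 in the authors' deposited tables, at rank 1478 of 1856 and 923 of 996. Only the brain table listed all 3 circles, and spleen listed the exon 4 to 8 circle alone. The authors removed low expression, and the lowest mean normalized count listed ran from 0.455 in brain to 0.825 in liver. A circle that is not listed may thus have been present below such a level.

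Within the locus the exon 4 to 8 circle outnumbered the exon 4 to 6 circle 132.8 times in brain, 47.8 times in heart and 45.7 times in liver. It outnumbered the exon 4 to 5 circle 195.2 times in brain and 110.6 times in kidney. It thus held 98.8% of the summed mean normalized count of the locus in brain, 98.0% in heart, 99.1% in kidney and 97.9% in liver. These ratios are taken within a table of the authors, and their counting error is unknown.

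The lead of the long circle over the others from its start was among the widest in 4 of the tables. In brain, 156 starts were shared by at least 2 circRNAs, and the most abundant of each held a median share of 74.5%. The Gigyf2 start had the highest share of these in brain, the highest of 39 in heart and of 65 in kidney, and the second highest of 63 in liver, where the highest was 99.2%. The medians there were 67.9%, 72.1% and 73.4%. Since the circle was chosen for its abundance, which also sets this share, the ranks are a description with no test. Over all organs together 248 of 2502 starts had at least 2 ends, and 40 had at least 3, as the Gigyf2 start did.

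**Figure D3:**
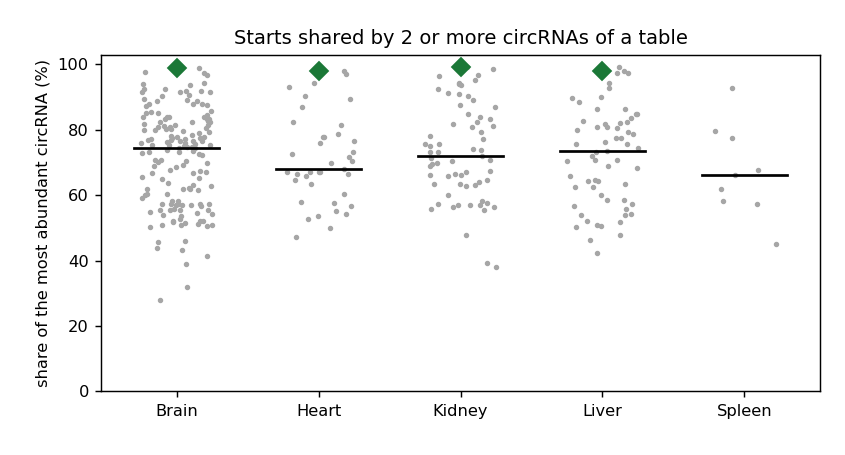
Share in percent (vertical) of the most abundant circRNA among those of a table that have the same start, by organ (horizontal). Grey points are starts with at least 2 circRNAs, black lines are medians, and green diamonds are the Gigyf2 start, at 98.8%, 98.0%, 99.1% and 97.9% in brain, heart, kidney and liver; spleen lists 1 Gigyf2 circle and has no diamond.

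Among the 133 circRNAs listed in every organ, those with the abundance profile most like that of the exon 4 to 8 circle were sought by the sum of absolute differences in percentile over the 5 organs. The nearest was chr5:118731398-118731635, at 1.34 percentile points, with ranks 2, 7, 6, 5 and 3 in brain, heart, kidney, liver and spleen. It spans 238 bases, against 15905 for the Gigyf2 circle. The next was chr2:70600348-70617339, at 1.85 points, with ranks 6, 8, 5, 3 and 4 and a span of 16992 bases. These 2 and the Gigyf2 circle were the 3 circRNAs that stood among the 10 most abundant in all organs. The third nearest, chr6:88332465-88335624, was at 5.94 points, with ranks from 9 to 16. It was followed by chr7:58890715-58896965 at 7.22 and chr4:9635901-9639347 at 7.42, which ranged from rank 1 to 30 and from rank 2 to 19. The median distance over the shared circRNAs was 102.0 points. The Gigyf2 circle stood at percentiles from 98.57 to 99.97, so a distance mainly measures how far the other circRNA lies below the top. The nearest are thus bound to be circRNAs abundant in all 5 organs. Brain, where the circle was selected, is part of the profile, and the likeness is a description with no test.

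The genotype comparison gave no call for any Gigyf2 circle. In the authors' DESeq2 test none of the 9 member entries with a p-value had an adjusted p below 0.05, and 2 had an unadjusted p below 0.05. These were the exon 4 to 8 circle in heart, 1 of 2 members there where 2.86% of the table had such a p, and the exon 4 to 6 circle in liver, 1 of 2 members where 9.06% had. Of the 80 liver entries with such a p, 73 lay on the line described below, as did that circle. Neither of 2 members had such a p in kidney (1.82% of the table), nor any of 3 in brain (2.05%). The spleen entry has no p-value (2.05% of the spleen table had a p below 0.05). An adjusted p below 0.05 occurred in 0.113% of the liver table and in none of the other tables.

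For the exon 4 to 8 circle the authors' deposited heart table gave a log2 fold change of -0.95 (SE 0.40; 95% interval -1.73 to -0.17). On the linear scale the ratio was 0.518, with an interval from 0.301 to 0.890. Its p of 0.0173 was the seventh smallest of 664, and the adjusted p of the authors' DESeq2 test was 0.996, so it was not called. Within 2-fold of its abundance in heart lay 26 other circRNAs. Their log2 fold changes in the authors' deposited table ran from -0.58 to 0.54, 8 were negative, and none had a p below 0.05. The lowest was chr5:118731398-118731635, the nearest in abundance profile, with an unadjusted p of 0.0585 in the authors' DESeq2 test. The Gigyf2 circle lay outside the range of the 26. Its SE of 0.40 was near the upper end of theirs, 0.26 to 0.43.

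In the other organs the estimates of the same circle were nearer to 0 or less exact. The authors' deposited brain table gave -0.10 (SE 1.09), with an interval from -2.23 to 2.04 and an adjusted p of 1.00 in the authors' DESeq2 test. The kidney table of the authors gave 0.15 (SE 0.73; -1.27 to 1.58), and the liver table gave -0.59 (SE 0.62; -1.80 to 0.62). In liver 18 circRNAs lay within 2-fold of its abundance, with log2 fold changes from -1.12 to 0.97 in the authors' deposited table, and the Gigyf2 circle lay inside this range. In kidney the 8 circRNAs within 2-fold ran from -0.62 to 0.10 in the authors' deposited table, and the circle at 0.15 lay just outside on the positive side, opposite to heart. In brain the 3 within 2-fold had -1.40, 0.31 and 9.73, and the authors gave no p-value for the last. The circle lay between -1.40 and 0.31.

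The precision of these estimates differed between organs. The 95% interval of the exon 4 to 8 circle reached 1.72-fold to each side in heart, 2.32-fold in liver, 2.69-fold in kidney, 4.38-fold in brain and 6.48-fold in spleen. Within each table it was among the closest estimates. Only 5 circRNAs had a smaller SE in brain and 2 in kidney, against 11 in spleen, 22 in heart and 30 in liver. The brain interval was thus wide although the circle was the most abundant circRNA there. Against circRNAs within 2-fold of its abundance, its SE was above their median in heart (0.40 against 0.36) and liver (0.62 against 0.50). It was below their median in brain (1.09 against 1.60), kidney (0.73 against 0.77) and spleen (1.38 against 1.46).

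In spleen the authors' deposited table gave the circle a log2 fold change of -2.72 (SE 1.38; -5.42 to -0.02) and no p-value. DESeq2 is known to withhold a p-value where a single library has an extreme count, and whether that was so here was not tested. Of the 10 most abundant spleen circRNAs, 4 had no p-value, against 1 in brain and none in heart, kidney or liver. Negative signs were also common there: 8 of these 10 were negative, with a median log2 fold change of -1.60, and so were 64.3% of the spleen table, with a median of -0.55. The part of this shift in the Gigyf2 value was not tested. The 2 other spleen circRNAs within 2-fold of its abundance had 0.97 and -1.59 in the authors' deposited table.

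**Figure D4:**
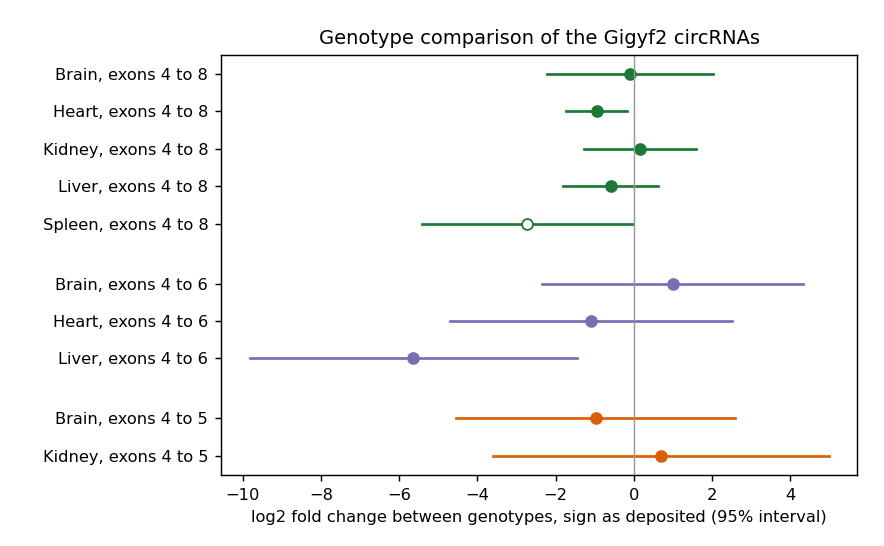
Log2 fold change between genotypes (horizontal, sign as deposited) for the 10 Gigyf2 entries of the authors' deposited tables, with 95% intervals as lines. The open circle marks the spleen entry, which has no p-value; the intervals of the heart and spleen entries of the exon 4 to 8 circle and of the liver entry of the exon 4 to 6 circle do not reach 0.

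Over the organs the exon 4 to 8 circle was negative in 4 of 5. Its inverse-variance weighted mean log2 fold change was -0.72 (SE 0.29; -1.28 to -0.16), and its p of 0.0122 was the second smallest of the 133 circRNAs listed in every organ. A p below 0.05 was reached by 5.26% of these, and after Benjamini-Hochberg adjustment the Gigyf2 circle did not pass (adjusted p = 0.597). Heart carried 51.7% of the weight, liver 21.5%, kidney 15.5%, brain 6.95% and spleen 4.35%. Without heart the mean was -0.47, with an unadjusted p of 0.253. Without spleen, where the authors gave no p-value, it was -0.63, with an unadjusted p of 0.0323 (adjusted p = 0.836). All organs were taken from the same animals, and the SE of the mean ignores this.

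None of the 10 organ pairs gave a test past the threshold for the genotype difference of the exon 4 to 8 circle. The widest gap was between kidney and spleen, 2.87 log2 units (SE 1.56, adjusted p = 1.00 over 3444 pairs of estimates). This gap, like every pair with spleen, uses the estimate for which the authors gave no p-value. No pair of organs had an unadjusted p below 0.05 for this circle, against 3.60% of all pairs. Between brain and heart the difference was 0.85 (SE 1.16) and between heart and kidney -1.10 (SE 0.83). These errors are wide, so the organs are not shown to act alike. They were added as if the organs were independent, although both organs of a pair come from the same 6 mice.

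The shorter circles were estimated less exactly. In the authors' deposited brain table the log2 fold changes were 0.99 (SE 1.70) for the exon 4 to 6 circle and -0.97 (SE 1.82) for the exon 4 to 5 circle, on either side of -0.10 for the exon 4 to 8 circle. In the heart table of the authors the exon 4 to 6 circle had -1.09 (SE 1.84), close to the -0.95 of the long circle but with an interval from -4.71 to 2.52. In the authors' deposited kidney table the exon 4 to 5 circle had 0.69 (SE 2.19).

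The liver entry of the exon 4 to 6 circle had the largest fold change at the locus. The authors' deposited table gave -5.64 (SE 2.13; -9.81 to -1.46) at a mean normalized count of 6.32, with an adjusted p of 0.150 in the authors' DESeq2 test. Its p of 0.00821 was the 30th smallest of 883. The size of this fold change exceeded log2 of the mean by 2.97, which places it on a line that 135 liver circRNAs share, all negative, with an excess from 2.89 to 3.02. On such a line the fold change follows the mean, so the size of -5.64 is not read as how far the genotypes differ. Whether 1 genotype held nearly all counts was not tested. Of the 271 liver circRNAs with a mean between 5 and 10, 49 lay on this line. Of the 135 on the line, 73 had an unadjusted p below 0.05 in the authors' DESeq2 test. In brain and heart the same circle lay off such a line, with an excess of -0.47 and 0.98.

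**Figure D5:**
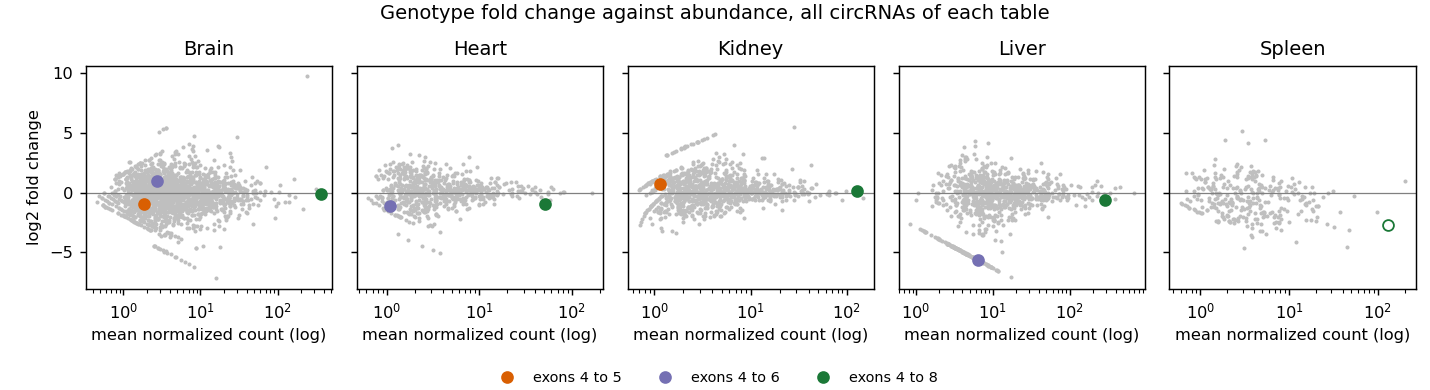
Log2 fold change between genotypes (vertical, sign as deposited) against mean normalized count (horizontal, log scale) for every circRNA of each organ table, grey, with the Gigyf2 circles coloured. The exon 4 to 6 circle of liver, at -5.64, sits on the straight lower line of the liver panel, and the open circle in spleen has no p-value.

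Differences between circles of 1 table were compared with the summed errors. In brain, heart and kidney the 5 pairs of Gigyf2 circles differed by 0.15 to 1.96 log2 units in size, each less than its SE. In liver the exon 4 to 6 circle was lower than the long circle, with an unadjusted p of 0.0230 that did not pass over the 939 pairs of circRNAs that share a start or an end (adjusted p = 1.00), of which 2.45% had an unadjusted p below 0.05. Because its estimate lies on the line described above, the size of the gap in liver is not interpreted. The same holds for its difference between liver and brain or heart, with unadjusted p of 0.0152 and 0.107 from the two-sided normal tail. Neither passed (adjusted p = 0.950 and 1.00). Of the 4 organ pairs of the shorter circles, 1 had an unadjusted p below 0.05, against 3.60% of all organ pairs.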

How the data were processed

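The members, comparisons and lists were chosen with earlier results of these data known. Per the submitters' processing notes, BWA 0.7.17-r1188, DESeq2 and GRCm39 were used; their roles, the circRNA caller and the model formula are not stated there. Per the file headers, the authors deposited for each organ a mean abundance signal (read as the mean normalized count), a log2 fold change with SE, a test score (Wald) and p-values with adjusted p-values. The score equalled fold change over SE, and the p-values equalled its two-sided normal tail, within rounding. With 3 mice per genotype this tail is an approximation. The treatment of the 2 samples per mouse and organ is not given, and SEs would be too small if they entered as independent.

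Computed here (Python 3.11.15, scipy 1.17.1): ranks, shares, 95% intervals, weighted means over organs, and differences between organs, tested with a two-sided normal tail and Benjamini-Hochberg adjustment over all eligible circRNAs. These functions were tested on simulated independent estimates with the deposited SEs, which leave out that organs share mice and circRNAs share libraries. Recovery of a planted change was checked for the organ pairs alone. Differences between circRNAs of 1 table were added after the values were seen, and leave out that both come from the same libraries. The fits for counts per library were not run, nor was the list of GIGYF2 partner genes, whose positions need a GRCm39 annotation. Named were all members, the 5 circRNAs with the most similar percentile profile, and circRNAs next to the leader in rank.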

Additional observations from a re-analysis of the deposited data

How the results depend on the processing

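The exon 4 to 8 circle stayed uncalled in all 13 alternatives over the 5 organs (adjustment over every p-value, only circRNAs with a mean of at least 5, and p recomputed for every entry), with adjusted p from 0.761 to 1.00. These alternatives change only the p-value or its adjustment, not the fold change, so they do not test its size or sign. Its difference between organs stayed uncalled in the 10 pairs with a mean of at least 5 in both (adjusted p = 0.998). The mean over organs stayed negative and uncalled in 6 alternatives, from -0.88 without kidney to -0.47 without heart, with equal weights at -0.84 and adjusted p from 0.424 to 0.989. With p recomputed, the spleen count of members below 0.05 went from 0 to 1, since the authors' withheld p becomes 0.0480. Among circRNAs listed in all 5 tables the circle ranked 6 in heart, 1 in kidney and 5 in liver. Counting only members with a mean of at least 5, it held 100% of the locus in brain, heart and kidney. No other member reached that mean there, so this share was fixed by the filter. Without the 10 most abundant others its share of the table was 8.41% in spleen, 2.66% in brain, 2.13% in kidney, 1.87% in liver and 1.54% in heart. Leaving out mice was not run, and depth cannot be weighed, because values per library were not analysed here. No paired analysis was possible because the comparison tables carry no replicate numbers.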
